A study of Mus musculus with 9 samples.

Results

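The osmotic stress and water transport genes examined here were 9 of the 22322 genes in the expression table of cultured mouse retinal ganglion cells (RGCs). They were taken by gene symbol, with earlier results of these data known. The list held the transcription factor Nfat5, the osmolyte enzyme Akr1b3, and the osmolyte carriers Slc5a3, Slc6a6 and Slc6a12. It also held the water channel Aqp1 and the sodium pump subunits Atp1b1, Atp1b2 and Atp1b3. All 9 symbols were found, and 8 passed the filter on low counts. The study sequenced mRNA of 3 groups with 3 wells each. Normal RGCs were grown in high glucose medium with 10% fetal bovine serum. Aging RGCs were treated with D-galactose, a sugar added at 30 mg/mL to induce aging. Aging RGCs + USCs medium were aging RGCs given culture medium taken from human urine-derived stem cells (USCs), without the stem cells. The order of sugar and medium in the sequenced wells is not stated. All groups shared the purchased RGCs, labelled wild type; neither the strain nor the time between sugar and lysis is stated. In the viability assay of the study the sugar was replaced after 24 h by complete medium, so whether it was still present when RNA was taken is not known. No group received another sugar at the same strength, and none received unconditioned USCs medium, so osmotic load and other actions of these treatments cannot be told apart.

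When the fluid around a cell becomes more concentrated, water leaves the cell. NFAT5, also called TonEBP, then accumulates in the nucleus and turns on genes that fill the cell with compatible osmolytes: aldose reductase, encoded by Akr1b3, makes sorbitol, while Slc5a3 brings in myo-inositol, Slc6a6 taurine and Slc6a12 betaine. AQP1 lets water cross the membrane along its gradient, and the sodium pump, to which the beta subunits belong, keeps sodium out and so holds cell volume. In the retina, aldose reductase and sorbitol are best known from the diabetic eye, and taurine is an abundant free amino acid.

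The cells were checked against markers of their label. Of 13 retinal ganglion cell markers, 5 had a mean of at least 1 FPKM in each group (FPKM is a level per transcript length and library size). The transcription factors Pou4f2 and Pou4f3, both on that list, were at 0 in all 9 libraries. Pou4f1, also on it, averaged 0.103, 0.197 and 0.0933 FPKM in the normal, aging and medium groups. Thy1 had at most 1 count in a normal library and was at 0 in both D-galactose groups. The epithelial keratins Krt8, Krt18 and Krt19 had group means of 157 to 350 FPKM, and vimentin 797 to 930 FPKM. Of the lists they came from, 4 of 8 epithelial and 3 of 8 mesenchymal markers were below 1 FPKM in every library. The summed FPKM of the 13 ganglion cell markers ran from 149 to 157 in the normal group, from 127 to 129 in the aging group and from 93.0 to 96.3 with USCs medium, and its part in the results was not tested. Nrn1 was the largest part of the sum, averaging 90.75, 83.18 and 49.05 FPKM in the normal, aging and medium groups. Among the 5 markers above, the means of Nrn1, Rbpms and Nefl were lower with the medium than in aging RGCs. Not every marker followed the sum: the means of Isl1 and Tubb3 were higher with the medium, though the Isl1 libraries overlapped. Tubb3, a neuronal tubulin, averaged 2.58, 1.41 and 10.9 FPKM in the normal, aging and medium groups. Libraries held 18189616 to 22342288 counts. Levels between groups are given in CPM, counts scaled to a common library size with TMM, a correction for library composition whose factors lay between 0.956 and 1.034. A gene passed the test at an adjusted p under 0.05, by edgeR's quasi-likelihood test over 12145 genes with Benjamini-Hochberg adjustment. Nothing in the labels says that the wells came from separate cultures, so p-values measure only the spread between wells. In bulk RNA, fewer cells of a type and less RNA per cell cannot be told apart.

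The start regions of 4 members are shown, because 3 of them fell at least 2-fold in aging RGCs + USCs medium while the last, Atp1b3, did not pass the test. Each runs from 250 bases before the RefSeq start of transcription to 50 bases after it, on build GRCm38.p6, 5′ to 3′ on the strand of the gene. They lie at chr16:92058072-92058371 on the plus strand for Slc5a3, chr6:55336049-55336348 on the plus strand for Aqp1, chr1:164458306-164458605 on the minus strand for Atp1b1, and chr9:96363666-96363965 on the minus strand for the downstream of 2 starts of Atp1b3. Capitals mark TGGAAA, the core of the element bound by NFAT5, or its reverse complement TTTCCA.
Slc5a3: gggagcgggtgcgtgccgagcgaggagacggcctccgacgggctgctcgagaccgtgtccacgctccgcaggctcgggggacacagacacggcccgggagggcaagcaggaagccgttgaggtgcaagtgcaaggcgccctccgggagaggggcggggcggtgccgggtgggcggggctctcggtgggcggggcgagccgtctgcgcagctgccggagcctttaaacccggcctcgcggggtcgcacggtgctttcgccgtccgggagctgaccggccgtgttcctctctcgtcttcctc
Aqp1: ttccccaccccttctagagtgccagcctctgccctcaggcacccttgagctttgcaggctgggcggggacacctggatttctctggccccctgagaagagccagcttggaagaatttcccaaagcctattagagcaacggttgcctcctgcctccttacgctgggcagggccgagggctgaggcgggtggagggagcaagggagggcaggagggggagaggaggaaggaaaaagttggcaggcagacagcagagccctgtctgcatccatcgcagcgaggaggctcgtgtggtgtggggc
Atp1b1: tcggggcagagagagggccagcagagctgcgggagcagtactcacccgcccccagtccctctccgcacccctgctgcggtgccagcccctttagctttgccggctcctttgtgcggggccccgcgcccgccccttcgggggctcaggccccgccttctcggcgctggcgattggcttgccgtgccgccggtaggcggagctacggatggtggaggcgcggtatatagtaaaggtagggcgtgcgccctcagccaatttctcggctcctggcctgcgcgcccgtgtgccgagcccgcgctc
Atp1b3: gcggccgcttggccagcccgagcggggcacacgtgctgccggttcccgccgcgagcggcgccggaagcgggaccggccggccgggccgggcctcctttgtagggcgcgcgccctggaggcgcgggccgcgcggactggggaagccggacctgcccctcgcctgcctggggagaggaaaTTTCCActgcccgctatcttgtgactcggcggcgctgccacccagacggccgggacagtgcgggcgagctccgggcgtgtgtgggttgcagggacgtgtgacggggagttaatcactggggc

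The letters were absent from the windows of Slc5a3, Aqp1, Atp1b1 and Nfat5, and occurred once in the printed window of Atp1b3, 72 bases before its start, not in its upstream window, and once in 1 of 5 windows of Slc6a12. Across all 32851 start windows of this length, 21.4% held the letters on either strand. A match of 6 letters is not a binding site, and known NFAT5 elements of osmolyte genes can lie well outside such windows. G and C made up 73.3% of the Slc5a3 window, 71% of that of Atp1b1, 62.7% of that of Aqp1 and 74.7% of the printed window of Atp1b3, against a median of 52.7% over all windows. RefSeq windows of Akr1b3, Slc6a6 and Atp1b2 were not used here.

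In aging RGCs the members did not move as a group. Aqp1 and Atp1b1 were higher than in normal RGCs, Akr1b3 and Nfat5 were lower, and 4 of the 8 tested did not pass. All of these differences were below 2-fold, and none of the osmolyte carriers passed. Over all genes tested 23.6% were higher and 23% lower, so 2 of 8 in each direction is close to the background. The median log2 fold change of the 8 was -0.04, against 0.00 over all genes tested.

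In aging RGCs + USCs medium 6 of the 8 members tested were lower. Against aging RGCs, Aqp1, Atp1b1, Slc5a3, Nfat5, Slc6a6 and Atp1b2 were lower, none was higher, and Akr1b3 and Atp1b3 did not pass. This comparison shares the aging libraries with the one before, so their values enter both. Of all genes tested 26% were lower and 27.1% higher. A fall of at least 2-fold was found for 4.21% of all genes and for Aqp1, Atp1b1, Slc5a3 and Atp1b2 among the members. The median log2 fold change of the 8 was -0.81, against -0.01 over all genes. Atp1b2 entered the test only through its counts outside this group, which makes a fall more likely to be called. The counts of members given here describe the list without supporting anything about it.

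The same members were also below normal RGCs, a comparison that shares its medium libraries with the last. There 7 of 8 were lower, Akr1b3 included, and none higher, where 29.9% of all genes were lower and 30.6% higher. Atp1b3 was the exception, with a log2 fold change of 0.00.

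**Figure D1:**
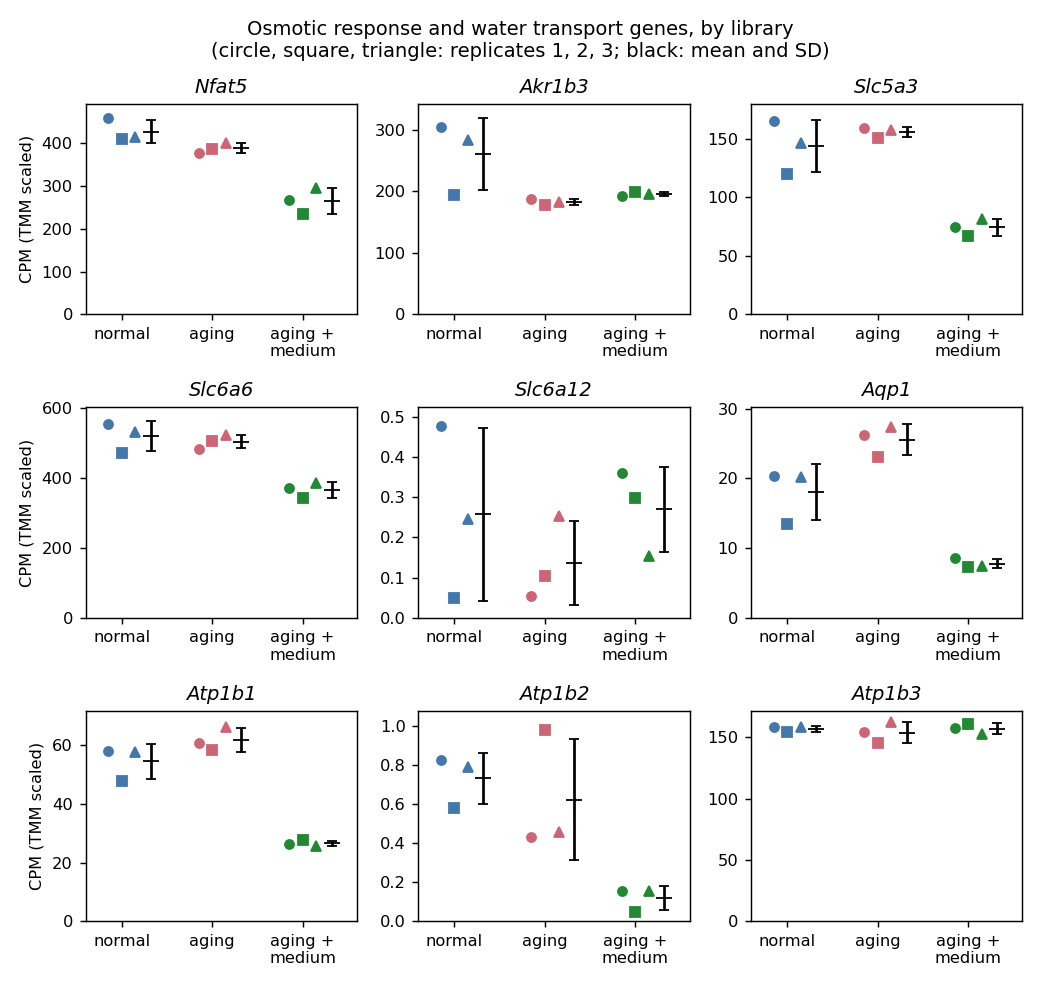
CPM of the 9 members in each library, with circles, squares and triangles for replicates 1, 2 and 3, and black marks for the mean and SD of each group (n = 3). Nfat5, Slc5a3, Slc6a6, Aqp1 and Atp1b1 are lower in each of the 3 medium libraries than in any other library. Atp1b3 is level at 145 to 162 CPM. How many of all genes tested separate in this way was not counted.

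Nfat5, on chromosome 8 of GRCm38 from 107293470 to 107379517, encodes the factor that senses and answers osmotic stress. Its level was 459, 411 and 414 CPM in normal replicates 1 to 3, 379, 388 and 402 CPM in aging RGCs, and 268, 235 and 295 CPM with the medium. The 3 groups did not overlap, and the medium libraries stood well below the rest. With the medium Nfat5 fell by 31.7% from its aging level, or -0.55 on the log2 scale with a standard error (SE) of 0.0518 (edgeR adjusted p = 6.39e-10). Between aging and normal RGCs the log2 fold change was -0.14 (SE 0.0507, edgeR adjusted p = 0.0282). That small difference did not pass with DESeq2 (0.213), with limma on FPKM (0.202 and 0.204), or once normal replicate 1 (0.186) or either of aging replicates 1 (0.102) and 2 (0.0694) was left out. NFAT5 is controlled largely through its protein and its place in the cell, which these data do not measure.

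Akr1b3 on chromosome 6 from 34302434 to 34317478, the gene of aldose reductase, showed a different order. It stood at 305, 194 and 283 CPM in normal RGCs, at 188, 178 and 183 CPM in aging RGCs and at 193, 199 and 196 CPM with the medium. Normal replicate 2 lay near the aging libraries, while normal replicates 1 and 3 lay well above them. Akr1b3 fell by 30% in aging RGCs (log2 fold change -0.51, SE 0.0833, edgeR adjusted p = 9.93e-06), and without normal replicate 2 the log2 fold change was -0.69. With the medium it stayed below the normal mean, and against aging RGCs the log2 fold change was 0.10, with a 95% interval of -0.07 to 0.27 (edgeR adjusted p = 0.338). Without normal replicate 2, which then no longer enters the estimate of the spread, this rise had an adjusted p of 0.0154. The enzyme belongs to a family with close relatives beside it on the chromosome, and how reads shared by them were counted is not given in the sources used here.

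Slc5a3, the sodium and myo-inositol cotransporter on chromosome 16 from 92058322 to 92087473, gave the clearest change among osmolyte carriers. The normal libraries had 165, 120 and 146 CPM and the aging libraries 159, 151 and 157 CPM. With the medium the level was 74.6, 66.5 and 81.2 CPM, below every other library. Slc5a3 fell by 52.4% from aging RGCs, a log2 fold change of -1.07 (SE 0.0727, edgeR adjusted p = 8.13e-13), and with each library left out it lay between -1.14 and -0.996. Aging and normal RGCs overlapped (log2 fold change 0.11, 95% interval -0.03 to 0.25, edgeR adjusted p = 0.178). It ranged from -0.00328 without normal replicate 2 (adjusted p = 0.968) to 0.22 without normal replicate 1 (0.0047), and passed without the low-count filter (0.0216). Slc5a3 shares 159 bases, 1.46% of its exonic bases, with exons of Mrps6 and Gm49711 on the same strand. Mrps6, a mitochondrial ribosome gene, fell by 0.69 on the log2 scale (edgeR adjusted p = 1.68e-09) in the same comparison.

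Slc6a6, the taurine carrier on chromosome 6 from 91684053 to 91759066, was the most abundant carrier per length, at 99.7 FPKM on average in normal RGCs against 13.6 FPKM for Slc5a3. In CPM it stood at 554, 472 and 530 in normal RGCs, 483, 504 and 521 in aging RGCs, and 370, 341 and 385 with the medium. Normal and aging libraries overlapped, and the medium libraries lay below both. The log2 fold change of the medium against aging RGCs was -0.46 (SE 0.0458, edgeR adjusted p = 1.73e-09). For aging against normal RGCs it was -0.05 with a 95% interval of -0.14 to 0.05 (edgeR adjusted p = 0.435), and without normal replicate 2 it was -0.11 with an adjusted p of 0.0202. In FPKM, the ratio of Slc5a3 to Slc6a6 within a library was 0.153 to 0.168 in aging RGCs and 0.0942 to 0.103 with the medium, so the inositol carrier fell further than the taurine carrier in these libraries (exact permutation test, two-sided p = 0.1, the smallest that 3 against 3 allows).

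Slc6a12, the betaine carrier on chromosome 6 from 121343076 to 121365775, was close to silent and was not tested. It had 11, 1 and 5 counts in normal RGCs, 1, 2 and 5 in aging RGCs, and 7, 6 and 3 with the medium. The groups overlapped. Summed over libraries, the rate with the medium was 1.85 times that of aging RGCs, with an exact 95% interval of 0.746 to 4.98 that covers counting error only, so a change was not detectable at this depth.

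Aqp1 on chromosome 6 from 55336432 to 55348555 showed the largest change among the members with over 100 counts in each library. Normal replicates 1 to 3 had 20.4, 13.4 and 20.3 CPM, aging RGCs had 26.2, 23.1 and 27.3 CPM, and the medium libraries had 8.58, 7.30 and 7.48 CPM. None of the 3 groups overlapped another, with aging RGCs highest and the medium lowest. Aqp1 was 41.6% higher in aging than in normal RGCs (log2 fold change 0.50, SE 0.108, edgeR adjusted p = 0.000336), and without normal replicate 2 the log2 fold change was still 0.33. From aging RGCs to the medium it fell by 69.6% (log2 fold change -1.72, SE 0.122, edgeR adjusted p = 2.35e-12). Only 1.41% of genes tested had a lower log2 fold change in that comparison. Endothelial and red blood cells also make AQP1, so their markers were read beside it: 6 markers together had 3.17 to 5.67 FPKM in normal RGCs, 2.06 to 3.02 FPKM in aging RGCs and 0.54 to 1.55 FPKM with the medium. Of these 6, Cdh5 carried most of the sum, Hbb-bs was at 0 in all libraries, and their part in the result was not tested. The sum was lower in aging than in normal RGCs, where Aqp1 was higher, and with the medium both the sum and Aqp1 were lowest.

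The other aquaporins were few. Of 11 further family members, 3 passed the low-count filter, and 8 had at most 7 counts in any library. In the medium against aging RGCs, Aqp8 was lower (5.57 to 3.86 CPM, log2 fold change -0.53, edgeR adjusted p = 0.00851), and without aging replicate 2 its adjusted p was 0.0547. Aqp3, which also carries glycerol, had a log2 fold change of -0.36 (edgeR adjusted p = 0.0371), and its adjusted p was over 0.05 without any of the 3 aging libraries (0.0663 to 0.0791), without medium replicate 1 (0.203) or 3 (0.137), and with DESeq2 (0.0599). None of the 3 passed in aging against normal RGCs, though Aqp3 did without normal replicate 2 (log2 fold change 0.375, edgeR adjusted p = 0.0472). Aqp8 and Aqp3 were named after their values were seen.

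The beta subunits of the sodium pump, which help the pump reach the membrane and tune its affinity for ions, parted ways. Atp1b1 on chromosome 1 from 164437109 to 164458355 had 58.0, 47.6 and 57.7 CPM in normal RGCs, 60.6, 58.4 and 66.1 CPM in aging RGCs, and 26.3, 27.5 and 25.6 CPM with the medium. The medium libraries were below every other library, and the aging libraries just above the normal ones. Atp1b1 fell by 57.1% from aging RGCs to the medium (log2 fold change -1.22, SE 0.0698, edgeR adjusted p = 2.1e-14). Its rise in aging RGCs was 13.3% (log2 fold change 0.18, SE 0.0637, edgeR adjusted p = 0.0215), and it did not pass without normal replicate 2 (0.218), without aging replicate 3 (0.159) or with limma on FPKM (0.131 and 0.13). Nme7 overlaps 575 exonic bases of Atp1b1 (18.7%) on the other strand, and whether reads were counted by strand is not given in the sources used here. Nme7 moved the opposite way, with log2 fold changes of 0.34 for the medium and -0.25 for aging RGCs.

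Atp1b3, on chromosome 9 from 96332655 to 96364442, hardly differed between groups. It had 158, 154 and 158 CPM in normal RGCs, 154, 145 and 162 CPM in aging RGCs, and 158, 161 and 152 CPM with the medium, all overlapping. The 95% interval of the log2 fold change was -0.05 to 0.11 for the medium against aging RGCs, and -0.11 to 0.05 for aging against normal RGCs. Without TMM factors the medium against normal RGCs gave -0.10 (edgeR adjusted p = 0.0314), when the median of all genes also moved to -0.11.

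Atp1b2, on chromosome 11 from 69599736 to 69605942 and known from glia, was near the limit of detection. Counts were 19, 12 and 16 in normal RGCs, 8, 19 and 9 in aging RGCs, and 3, 1 and 3 with the medium. The medium libraries lay below the others, while normal and aging libraries overlapped. Summed over libraries, the rate with the medium was 0.18 times that of aging RGCs (exact 95% interval 0.0674 to 0.409, counting error only). By edgeR the adjusted p was 0.00241, with a log2 fold change of -2.34 that rests on these few counts.

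Read within a library, the balance of the beta subunits shifted. The FPKM of Atp1b1 divided by that of Atp1b3 was 0.287, 0.238 and 0.282 in normal RGCs, 0.303, 0.316 and 0.314 in aging RGCs, and 0.129, 0.132 and 0.13 with the medium. Scaling between libraries cannot move this ratio, and the medium libraries lay below all others. Atp1b1 made up 23.7% ± 0.38 (SD, n = 3) of the beta subunit FPKM in aging RGCs and 11.5% ± 0.115 with the medium. The exact permutation test gave p = 0.1 (two-sided), the smallest possible for 3 against 3.

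**Figure D2:**
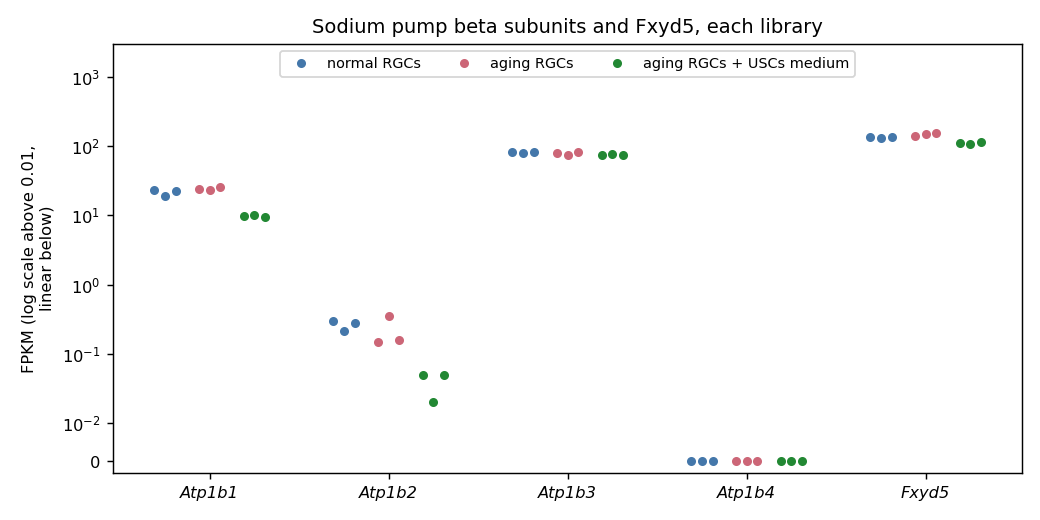
FPKM of sodium pump beta subunits and of the pump regulator Fxyd5 in each library, on an axis that is logarithmic above 0.01 and linear below. Among genes above 1 FPKM in all libraries, Atp1b1 drops most in the medium, to 9.58 to 10.2 FPKM, while Atp1b3 stays near its level in the other groups.

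Atp1b4, another beta subunit gene, had 0 counts in all 9 libraries. Fxyd5, a regulator of the pump named after its values were seen, fell from 123 to 96.8 CPM (log2 fold change -0.34, edgeR adjusted p = 1.78e-07).

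**Figure D3:**
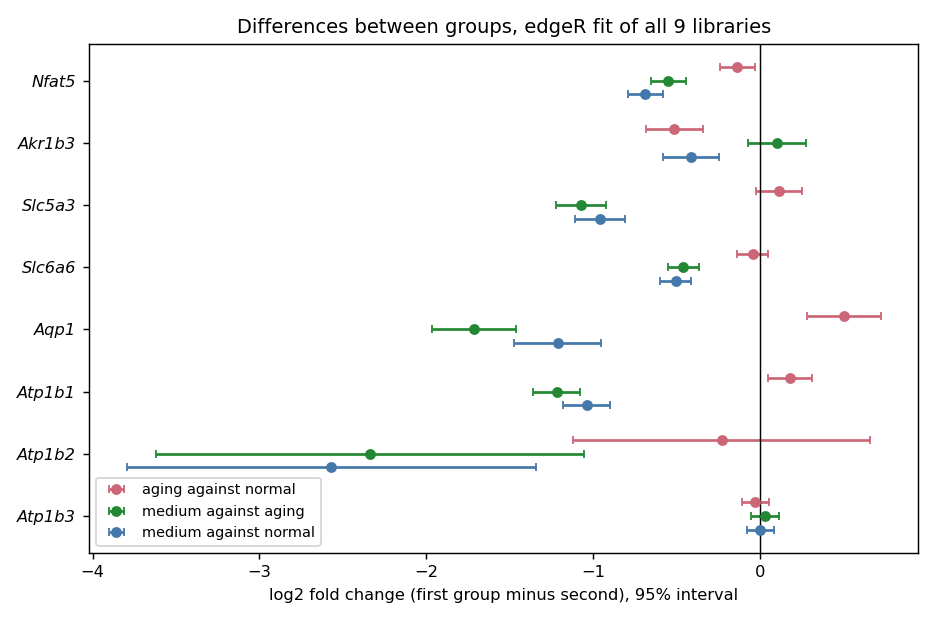
Log2 fold change of the 8 members tested, with 95% intervals, for each of the 3 pairs of groups. In the medium the intervals of 6 members lie below 0 against either group, those of Atp1b3 span 0, and in aging RGCs the differences stay between -0.51 and 0.50.

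Ordered by level per length in normal RGCs, Akr1b3 came first with a mean of 193 FPKM, followed by Slc6a6 with 99.7 and Atp1b3 with 81 FPKM. Nfat5 had 40.7 FPKM, Atp1b1 21.8, Slc5a3 13.6 and Aqp1 7.06 FPKM, and Atp1b2 and Slc6a12 were below 0.3 FPKM. No neighbours in this order overlapped between libraries except Atp1b2 with Slc6a12. In normal RGCs, replicate 2 was the lowest library for each of the 9 members, and the values without it are given above where they changed a call.

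The genes most like Nfat5 and Aqp1 were sought among all genes tested, by Pearson's r of log2 CPM over the 9 libraries, which mostly reflects the 3 group means. For Nfat5 they were Akap13 (r = 0.996), Syde2 (r = 0.989) and Nsun7 (r = 0.986). Akap13 averaged 93.8 CPM in the normal wells, 87.9 CPM in the aging wells and 66.5 CPM with the medium. For Aqp1 they were Tapbp (r = 0.994), Htra3 (r = 0.993) and Hdac5 (r = 0.99). Among the members, r with Slc5a3 was 0.976 for Atp1b1, 0.975 for Slc6a6 and 0.967 for Aqp1, against -0.164 for Atp1b3.

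A wider set of 76 genes in 6 lists was then read, and 50 of them passed the low-count filter. In aging against normal RGCs 11 of these were higher and 12 lower, 46% in all, against 46.5% of all genes tested. In the medium against aging RGCs 10 were higher and 23 lower, 66% in all against 53.1%, with a median log2 fold change of -0.13. Against normal RGCs the medium gave 11 higher and 25 lower, 72% in all against 60.5%. The plot of the wider lists shows that most of these differences were small.

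**Figure D4:**
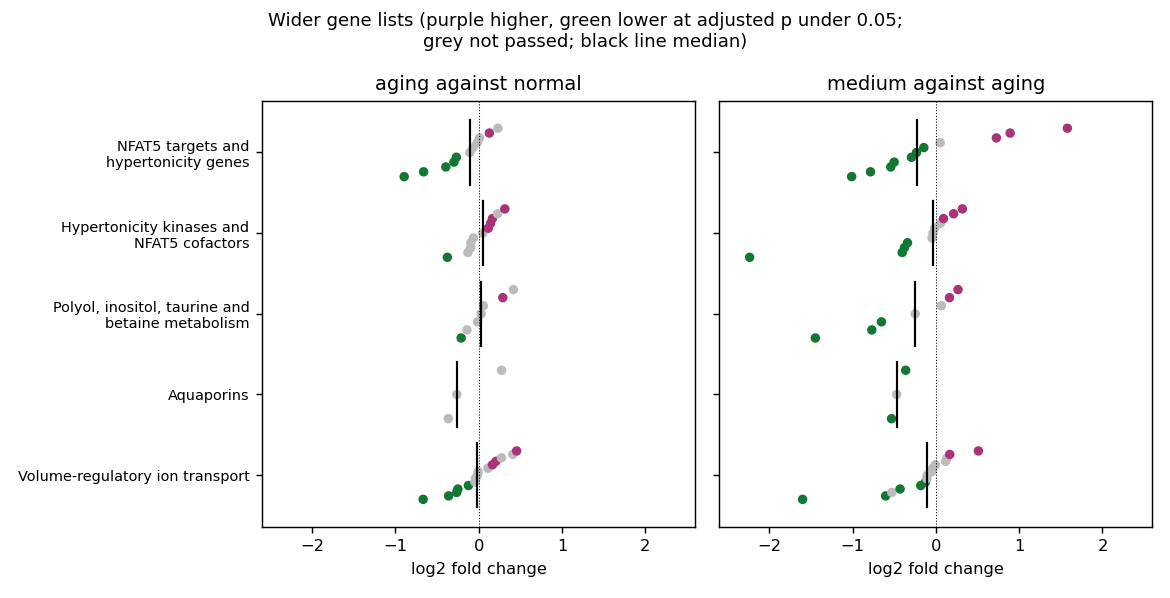
Log2 fold change of each tested gene in 5 of the 6 lists, in the aging-to-normal and medium-to-aging comparisons, coloured by the edgeR call, with the list median as a black line. Most points lie within 1 of 0, and in the medium NFAT5 targets and hypertonicity genes spread from -1.01 to 1.58.

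NFAT5 targets and hypertonicity genes did not move one way. In aging RGCs 5 of 11 were lower and 1 was higher, 54.5% where 46.5% of all genes passed. Hspa4l, a chaperone of the HSP110 family that is known as an osmotic stress protein, went from 489 ± 51.1 down to 309 ± 5.02 CPM (SD, n = 3), or -0.66 on the log2 scale (edgeR adjusted p = 6.82e-12). In the medium against aging RGCs 7 of 11 were lower and 3 higher, 90.9% where 53.1% of all genes passed. Hspa4l was among the lower genes (-0.14, edgeR adjusted p = 0.0159). It did not pass there with DESeq2 (0.145) or limma (0.0915 and 0.0871). Nor did it without aging replicate 3 (0.0678) or without medium replicate 1 (0.0627) or 2 (0.115). Hspa1b, the inducible HSP70, fell from 15.3 to 7.62 CPM (log2 fold change -1.01, edgeR adjusted p = 3.27e-08), though its near-identical copy Hspa1a can share its reads. S100a4, a calcium-binding protein, had a log2 fold change of -0.78, but 51.7% of its exonic bases are shared with another gene on its strand. It was also the gene called higher in aging than in normal RGCs (0.13, edgeR adjusted p = 0.0223). That rise did not pass with limma (0.212 and 0.209) or without TMM factors (0.0644). Nor did it without normal replicate 3 (0.11) or without aging replicate 1 (0.289) or 3 (0.085). The genes that rose were Sgk1, a kinase that promotes sodium transport, from 74 ± 3.02 to 137 ± 3.39 CPM (log2 fold change 0.89, edgeR adjusted p = 8.45e-16), the small heat shock gene Hspb1 (0.73) and the urea carrier Slc14a1 (1.58, from 0.947 to 2.86 CPM). Slc14a1 was also lower in aging than in normal RGCs (-0.89, edgeR adjusted p = 0.0185). That fall did not pass with limma (0.102 and 0.0855), nor when normal replicate 1 (0.0933) or either of aging replicates 1 (0.1) and 2 (0.0599) was left out.

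Of 7 enzymes around the osmolytes tested, 3 were lower and 2 higher with the medium against aging RGCs, 71.4% where 53.1% of all genes passed. In aging against normal RGCs 1 was higher and 1 lower, 28.6% where 46.5% of all genes passed, and the difference between these comparisons was not tested. Sord, which turns the sorbitol made by aldose reductase into fructose, fell from 39.6 ± 1.14 to 23.3 ± 1.55 CPM (log2 fold change -0.77, edgeR adjusted p = 1.67e-10). Sord was already lower in aging than in normal RGCs (log2 fold change -0.21, edgeR adjusted p = 0.0063). The FPKM ratio of Akr1b3 to Sord was 7.81 to 10.8 in normal RGCs and 7.59 to 8.32 in aging RGCs, which overlapped. With the medium it was 13.1 to 15 (exact permutation p = 0.1 against aging RGCs, two-sided, the smallest possible). Impa2, which releases free inositol, had a log2 fold change of -0.65 (edgeR adjusted p = 1.27e-10), but 23.6% of its exonic bases are shared with another gene on the other strand. Gdpd5, which breaks down the osmolyte glycerophosphocholine, had a mean of 4.3 CPM in aging RGCs and of 1.58 CPM with the medium (log2 fold change -1.45, edgeR adjusted p = 5.47e-06).

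Among kinases and cofactors of the response, 4 of 11 were higher and 1 lower in aging RGCs, and 3 were higher and 4 lower with the medium. That made 45.5% in aging RGCs, where 46.5% of all genes passed, and 63.6% with the medium, where 53.1% did. Wnk4 was the only member of this list that differed by at least 1.5-fold between the medium and aging RGCs, with 11 to 14 counts in aging libraries and 0 to 4 with the medium. It entered the test only through the other groups, and limma on FPKM gave an adjusted p of 0.434 and 0.269.

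Of 15 ion transporters that restore cell volume, 3 were higher and 5 lower in aging RGCs, and 2 higher and 5 lower with the medium. These shares, 53.3% and 46.7%, are near those of all genes tested, 46.5% and 53.1%. Slc12a2, the NKCC1 cotransporter that loads cells with salt after shrinkage, followed the order of Aqp1: its mean was 108 ± 7.03 CPM (SD, n = 3) for the normal wells and 147 ± 4.27 CPM for the aging wells (log2 fold change 0.46, edgeR adjusted p = 1.62e-09). With the medium it was 97.1 ± 3.24 CPM (log2 fold change -0.60 against aging RGCs, edgeR adjusted p = 5.47e-12). Slc12a5, the KCC2 potassium and chloride exporter of neurons, fell from 6.02 to 1.98 CPM (log2 fold change -1.60, edgeR adjusted p = 8e-08). Lrrc8e, a subunit of the volume-regulated anion channel, was lower in aging RGCs (12.9 to 8.07 CPM, log2 fold change -0.67, edgeR adjusted p = 5.37e-05), and its log2 fold change with the medium was 0.13 (95% interval -0.13 to 0.40).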

How the data were processed

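RNA of 9 wells of cultured RGCs was sequenced, 3 per group by the labels. The authors deposited, for each library, an expected count per gene, an estimate that need not be whole, and an FPKM value, in which that count is divided by transcript length and library total. The submitters' processing notes name the genome build mm10; the aligner, counter, versions and handling of strand were not given in the sources used here. Between 6.92% and 7.38% of all counts in a library, zeros included, were fractional.

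Expected counts were rounded to whole numbers. Genes were kept by the filterByExpr function of edgeR 4.0.16 (R 4.3.3), scaled by TMM and tested with the quasi-likelihood F test on all 9 libraries, so that the groups shared 1 estimate of the spread (6 residual degrees of freedom), and p-values were adjusted by Benjamini-Hochberg over 12145 genes. The script was tested on simulated data. FPKM served for levels between genes and for ratios, compared by exact two-sided permutation tests, and rates of low counts were compared by exact intervals that cover counting error only. Alternatives were DESeq2 1.42.0, limma 3.58.1 on log2(FPKM + 1) and log2(FPKM + 0.1), other scalings and filters, only 2 groups in the fit, a replicate block, a 2-fold limit, and each library left out.

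The members and the wider lists were chosen with earlier results of these data known. All members were named, together with genes of the wider lists that passed with at least a 1.5-fold difference in aging against normal RGCs or in the medium against aging RGCs, and the 3 genes most correlated with Nfat5 and with Aqp1. Each library counted as a separate sample. Replicates differed by more than sampling noise, which does not show that the wells came from separate cultures. Same-numbered wells did not deviate together (r from -0.0484 to 0.047), so the numbers were not taken as pairs. Some genes covered by the rule for named genes are not reported here. Gene positions came from GENCODE M21 on GRCm38, matched by 22267 of the 22322 identifiers, and start regions from RefSeq on GRCm38.p6.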

Additional observations from a re-analysis of the deposited data

How the results depend on the processing

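Of 428 recomputed member values, 411 kept their side of the threshold (397 with the same sign; 14 changed sign without passing either way), 10 no longer passed, 6 newly passed and 1 reversed: Atp1b3 in the medium against normal RGCs, at -0.0993 without TMM factors. Of 969 for the other named genes, 923 kept their side (917 with the same sign, 6 changed sign without passing), 37 no longer passed and 9 newly passed. In aging against normal RGCs, 2 members were higher, but 3 without the low-count filter (Slc5a3 added), 0 with a 2-fold limit, 1 with either limma pseudocount, and 1 to 3 with each library left out (1 without normal replicate 2 or aging replicate 3, 3 without normal replicate 1). There 2 were lower, but 1 with DESeq2, 0 with a 2-fold limit, 1 with either limma pseudocount, and 1 to 3 with each library left out. In the medium against aging RGCs no member was higher, but 1, Akr1b3, was without the low-count filter (log2 fold change 0.105), with only 2 groups in the fit, and without normal replicate 2 (0 to 1 over libraries left out). Against normal RGCs 7 members were lower and 3 with a 2-fold limit. Of all genes tested, 4.21% were at least 2-fold lower in the medium against aging RGCs. Other shares of all genes at that limit were not computed, so the remaining counts at it have no background beside them. In the wider lists a 2-fold limit left 0 of 11 higher and 0 of 12 lower in aging RGCs, 1 of 10 higher and 4 of 23 lower for the medium against aging RGCs, and 0 of 11 higher and 3 of 25 lower against normal RGCs. Limma left 6 of the 10 higher with either pseudocount; of the 11 higher against normal RGCs, 5 passed without TMM factors, 7 with upper-quartile factors, 6 and 5 with limma, and 6 to 11 with each library left out, the lowest without medium replicate 1. Without TMM factors the median log2 fold change of all genes was -0.085 for the medium against aging RGCs and -0.11 against normal RGCs, and the share of higher genes among those called was 35.8% and 34.7%, against 51.1% and 50.6% with them. The replicate block left 2 members higher and 2 lower in aging RGCs and changed no call of a member. Depth limits Slc6a12 and Atp1b2, which had at most 19 counts in a library. With 3 wells a group, an exact test of 1 ratio cannot go below p = 0.1.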
